A study of Mus musculus with 9 samples.

Results

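Ribosome biogenesis genes that are widely described as MYC targets were followed across the 9 arrays of a study of mouse embryonic stem (ES) cells and germ cells. The set held 36 genes, given as a list of symbols. A probe was taken as one of theirs when the RefSeq accession printed for it on the array belonged to a listed symbol. The arrays held 32450 genes or identifiers in all, of which 20443 were bright enough to test. All 36 genes of the set were among them, and each was well above background on all 9 arrays.

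The study compared 3 groups of sorted cells, each on 3 arrays that its design text calls biological replicates. Control cells were VV3, a male ES line of 129SV background in which Venus, a yellow fluorescent protein, is driven by the promoter of Vasa (Ddx4), a germ cell RNA helicase gene. They were transfected with the AllStars non-silencing siRNA in Lipofectamine RNAiMAX, and live single cells were collected by sorting 3 days later. Max knockdown cells were the same line with siRNA against Max for the same 3 days, but they were also sorted for Venus, so the siRNA and the Venus gate cannot be told apart. Both ES groups grew in medium with KSR, FBS and LIF and came from this single line. The primordial germ cells (PGCs) were sorted as live, single, GFP-positive cells from trypsin-treated genital ridges at E13.5. Their donors were male MCH x C57BL6/J embryos with the Oct4ΔPE-GFP transgene, in which GFP marks germ cells. Strain, culture, dissociation and developmental stage all differ between PGCs and ES cells and cannot be told apart here, and no source used here says whether embryos were pooled.

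Ribosomes are built mainly in the nucleolus, where RNA polymerase I (Pol I) transcribes a long precursor of the ribosomal RNAs. Small nucleolar ribonucleoproteins (snoRNPs) of the box C/D and box H/ACA classes modify the precursor, and separate sets of factors cut it and fold it into the small and the large subunit. MYC proteins pair with MAX to bind E-box DNA, and genes of this pathway are among the targets best known for MYC in growing cells.

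Values are log2 spot signals after the 75th percentile of the array was subtracted, so a value of 0 is that percentile. Differences between groups are log2 differences with the standard error (SE) of limma's fit over all 9 arrays, and adjusted p-values are Benjamini-Hochberg values over all 20443 genes of a comparison. "Rose" and "fell" are used at an adjusted p under 0.05. Between 58.2% and 67.6% of spots were well above background on an array, and 0 spots were saturated. Across genes, r between 2 replicates of a group was 0.991 to 0.995. It was 0.966 to 0.974 between a control and a knockdown array and 0.866 to 0.882 between a PGC and an ES cell array. Controls 1 and 2 and knockdowns 1 and 2 lay on slide 1, control 3 and knockdown 4 on slide 2, and the PGC arrays on slides 3 and 4, so slide and cell type cannot be told apart for PGCs. With 3 arrays in each group, the number of arrays limits the precision, and for 1 gene alone the smallest 2-sided p of an exact permutation test is 0.1.

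Max itself, the obligate partner of MYC, was lower in the cells that received its siRNA. Its signal was 2.84, 2.735 and 2.85 on the control arrays, 0.59, 0.83 and 1.13 on the knockdown arrays and 3.77, 3.65 and 3.57 on the PGC arrays. It fell by 1.96 (SE 0.14, limma adjusted p = 2.9e-05) after knockdown, with no overlap of the groups. Against control cells it was 0.85 higher in PGCs (limma adjusted p = 0.00042), a difference that was -0.11 when arrays were scaled on spike-in transcripts instead.

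Myc moved the other way from Max in the knockdown cells and was far lower in PGCs. Its signal was -1.24, -1.33 and -0.93 in controls, -0.21, 0.46 and 0.22 after knockdown and -4.44, -4.345 and -4.19 in PGCs, and no groups overlapped. Myc rose by 1.33 (SE 0.18, limma adjusted p = 0.00068) after Max knockdown and fell by 3.16 (limma adjusted p = 6.8e-07) in PGCs against control. Mycn, the MYC paralog of early embryos, differed by 0.41 and 0.21 in those 2 comparisons and passed in neither (limma adjusted p = 0.086 and 0.29). Mga, a MAX partner of the germ cell-gene repressor PRC1.6, rose by 0.51 after knockdown (limma adjusted p = 0.0096) and was 0.26 higher in PGCs, which did not pass (limma adjusted p = 0.073). With spike-in scaling the PGC differences from control of Mycn and Mga were -0.76 and -0.70.

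After Max knockdown more genes of the set fell than rose, and most did not pass. Of the 36 genes, 13 fell, 2 rose and 21 did not pass, against a background of 21.9% of all tested genes that fell and 18.2% that rose. The falls made up 36.1% of the set and the rises 5.56%. The median difference was -0.22, beside -0.065 over all genes tested, and 27 of the 36 lay below that overall median. Each fall was smaller than 2-fold, from -0.27 for Npm1 to -0.69 for Nolc1, and the rises were 0.48 for Rrp12 and 1.07 for Pes1. The 3 knockdown arrays lay below all 3 control arrays for 20 genes and above them for 5, beside 30.7% and 23.4% of all genes tested.

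Per array, the set's median relative to the mean of the controls was -0.32, -0.23 and -0.15 on knockdown arrays 1, 2 and 4, and -0.019, 0.033 and -0.013 on the control arrays. Over all genes tested the same medians were -0.080, -0.073 and -0.044 after knockdown. Within slide 1 the median difference of the set was -0.28 and within slide 2 it was -0.17. The control and knockdown arrays did not overlap for any of the 15 genes that passed. Their signs were therefore bound to be the same on both slides, which tests nothing further. Leaving out knockdown 1 or knockdown 2 reduced the 13 falls to 8 each time. Over all 20443 genes tested the falls went from 4485 to 3585 and 3442. The calls of Polr1b, Mybbp1a, Npm1, Nop2, Rrp1b and Ddx18 were each lost under at least 4 alternative settings. Those of Nolc1, Ppan, Wdr43, Wdr74, Polr1c, Pes1 and Rrp12 were lost only under spike-in scaling without slide as a block. That setting left 0 calls in the set and 0 among 122 other ribosome biogenesis genes, beside 731 rises and 291 falls among all 20443 genes tested. With spike-in scaling and slide as a block, the 7 genes just named still passed, and the falls of Gnl3 and Nhp2 did not.

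**Figure D1:**
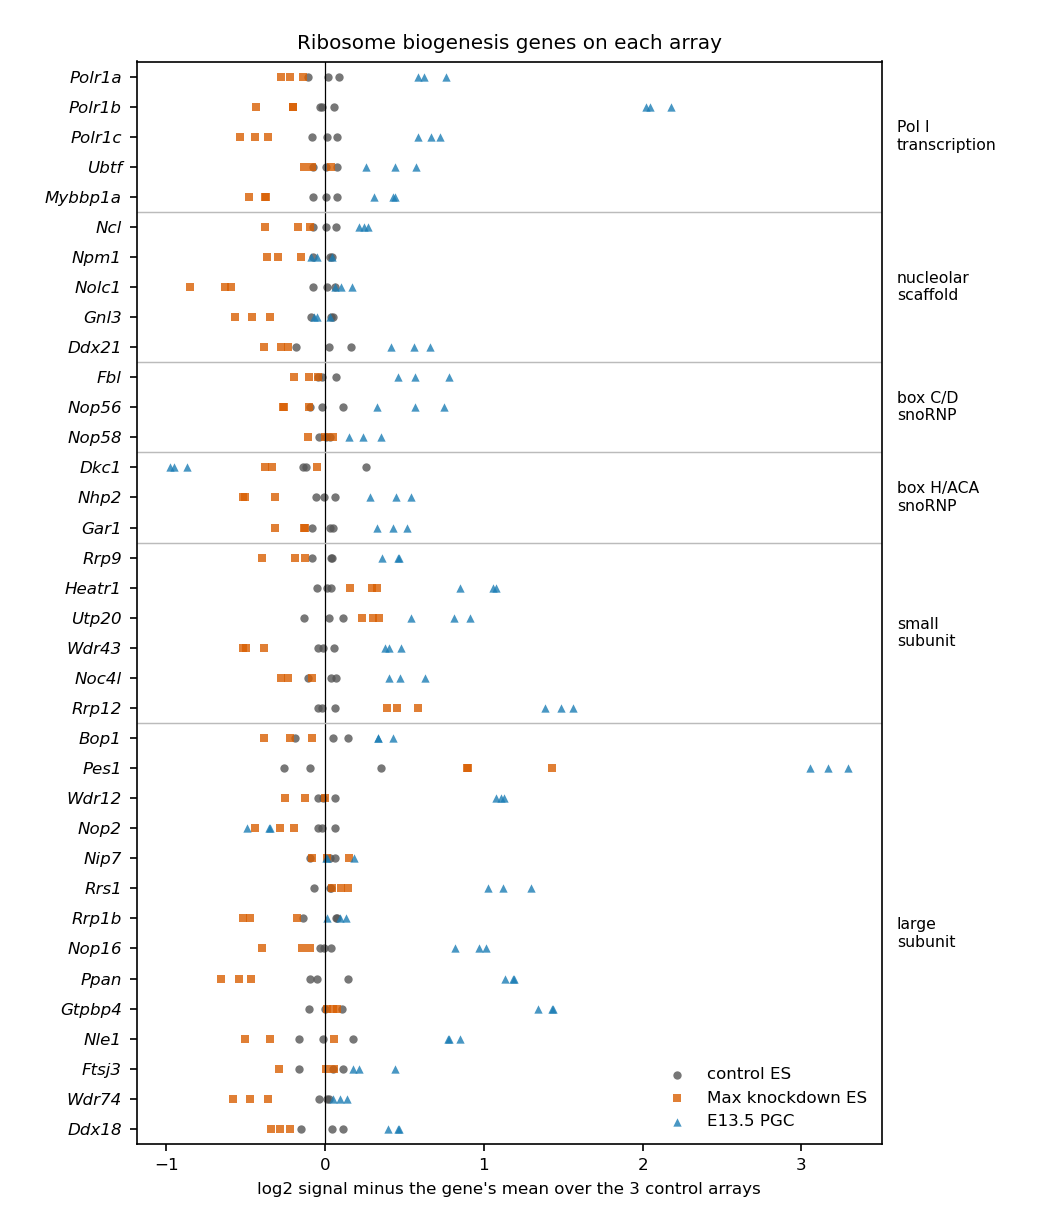
Log2 signal of each of the 36 genes on the 9 arrays, after its mean over the 3 control arrays was subtracted; each symbol is 1 array, and genes are grouped by role. Knockdown arrays lie below all control arrays for 20 genes and above them for 5, and PGC arrays lie above all controls for 29, a side that turned for most of these genes under spike-in scaling.

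In PGCs the same genes were mostly higher than in control ES cells on the percentile scale. There, 27 of 36 rose (75%), 2 fell and 7 did not pass, beside 43.2% of all tested genes that rose and 32.4% that fell. The median difference was 0.43, beside 0.18 over all genes tested, and 28 of 36 lay above that overall median. The PGC arrays lay above all controls for 29 genes and below them for 2, beside 45% and 33.5% of all genes. Scaling on spike-in transcripts shifted every gene of this comparison down, to a median of -0.53 for the set and -0.79 for all genes tested, and turned the sign of 19 of the 27 rises. Apart from that scaling, the rises of Ncl, Nop58 and Bop1 were each lost under at least 5 alternatives, and those of Ubtf and Ddx21 with the mean of their probes. The distance of the set's median from that of all genes was 0.26 under both scalings. Each scaling shifts all genes of an array alike, so this distance is the same in both by construction. The distance was -0.065 when the filter on dim genes was dropped. All 32450 genes or identifiers were then counted, with a median difference of 0.50.

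Against Max knockdown cells, 33 of the 36 genes were higher in PGCs, Dkc1 was lower, and Nop2 and Nip7 did not pass. With the mean of each gene's probes, 29 rose and 4 fell. Over all genes 44.9% rose and 31.4% fell in this comparison. The median difference was 0.73, beside 0.21 over all genes tested, and under spike-in scaling these became -0.26 and -0.77 and 23 of the 33 rises turned sign. The knockdown and PGC comparisons with control share the 3 control arrays, so their values are set side by side here and not correlated. All arrays measured bulk RNA, in which fewer cells of a type and less RNA per cell cannot be told apart.

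**Figure D2:**
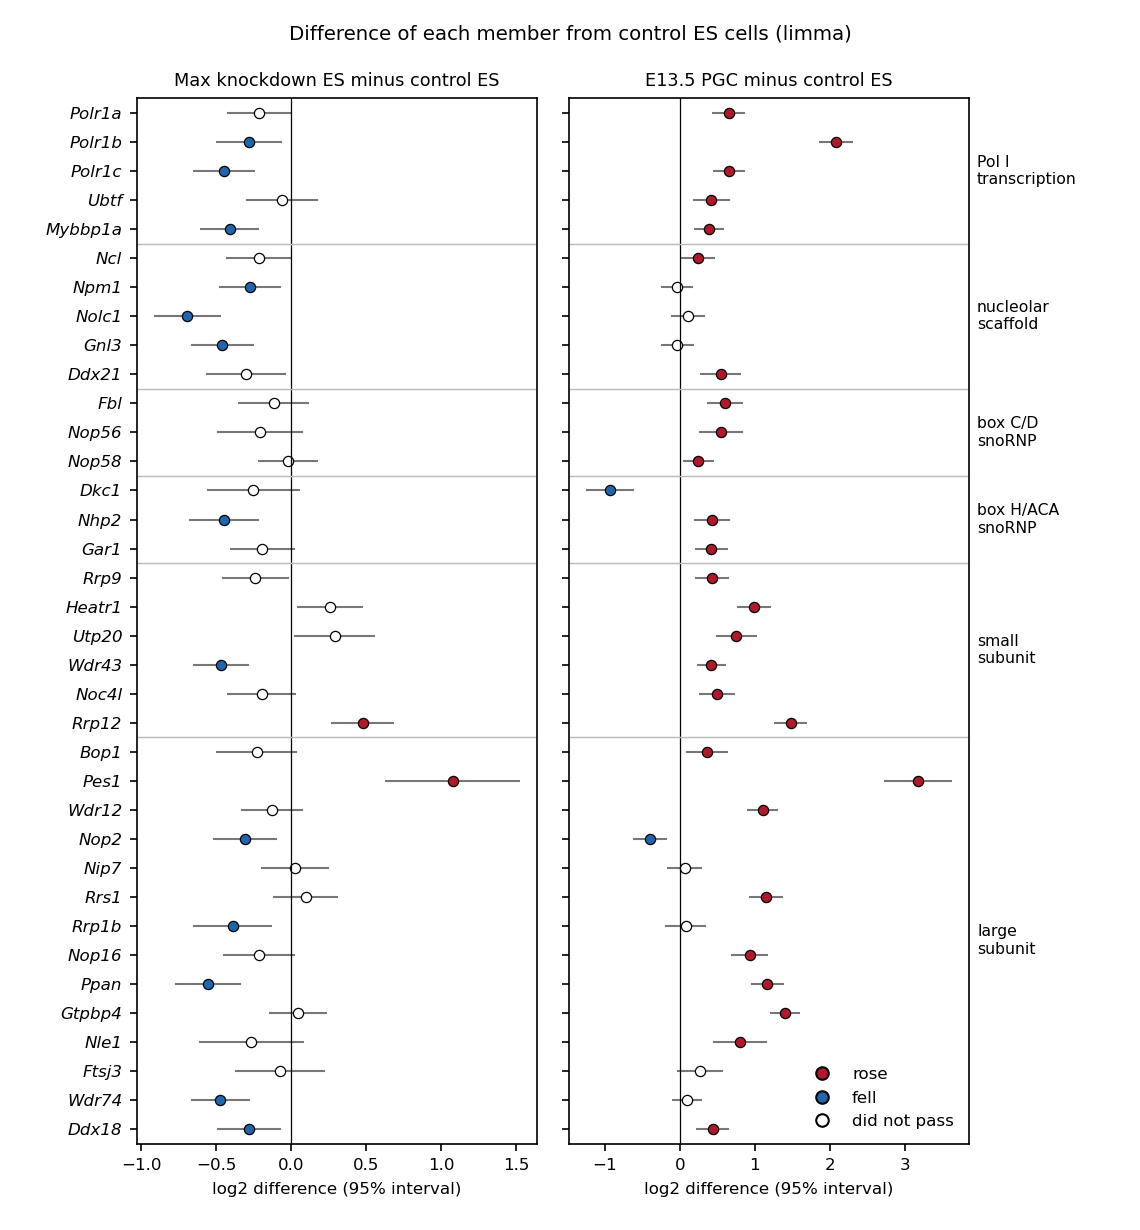
Log2 difference of each gene from control ES cells with its 95% interval from limma, for Max knockdown on the left and PGCs on the right, whose horizontal axes differ. Filled points passed an adjusted p of 0.05: 13 fell and 2 rose after knockdown, and 27 rose and 2 fell in PGCs on the percentile scale, where spike-in scaling turned the sign of 19 rises.

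**Figure D3:**
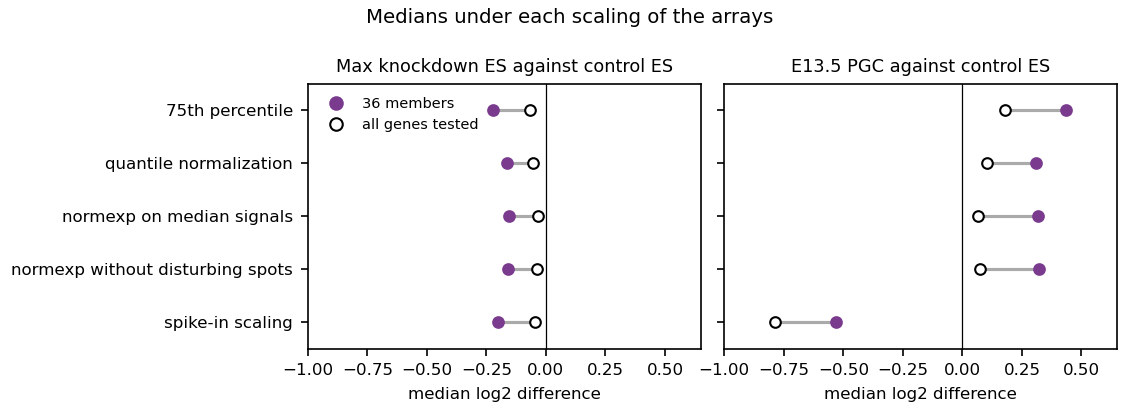
Median log2 difference of the 36 genes and of all genes tested under each scaling or background correction of the arrays. The set lies to the left of all genes after knockdown and to the right in PGCs in every one of these. Both PGC medians are below 0 under spike-in scaling, at -0.53 and -0.79. Percentile and spike-in scaling each shift all genes of an array alike, so the distance between the medians is the same in both by construction. Without a filter on dim genes, which is not drawn, the PGC distance was -0.065.

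Because MYC and MAX bind E-boxes, the promoter windows of the set were searched for the canonical one, CACGTG, which reads the same on both strands. RefSeq windows (GRCm38.p6) of 250 bases before to 50 after an annotated start were matched by symbol for 31 of the 36 genes; Npm1, Fbl, Rrp12, Rrs1 and Bop1 were not matched. A match stood in 6 of the 31 (19.4%), namely Mybbp1a, Utp20, Wdr43, Pes1, Nop2 and Nle1. It stood in 18.4% of 103 other ribosome biogenesis genes tested and in 8.09% of 27025 genes of the table (7.15% of all windows). The median GC content was 59.0% in the set's windows and 52.67% in all windows. When CACGCG was allowed beside CACGTG, 15 of the 31 had a match (48.4%), beside 46.6% of the 103 other ribosome biogenesis genes and 17.2% of all genes.

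Windows of 3 genes are shown because the same motif stood near the start of genes with different calls. After Max knockdown Wdr43 and Nop2 fell and Pes1 rose on the probes used. The Nop2 fall was lost under 12 alternative settings, and the other Pes1 probe differed by -0.085 (limma adjusted p = 0.53). The contrast in direction is therefore uncertain. The motif is in capitals, the strand is plus, and each window runs from 250 bases before the start to 30 after it. They lie at chr17:71615965-71616244 for Wdr43, chr6:125131633-125131912 for Nop2 and chr11:3963725-3964004 for Pes1. The motif begins 17 bases after the annotated start in Wdr43, 2 bases after it in Pes1, and at -60 in Nop2.
Wdr43: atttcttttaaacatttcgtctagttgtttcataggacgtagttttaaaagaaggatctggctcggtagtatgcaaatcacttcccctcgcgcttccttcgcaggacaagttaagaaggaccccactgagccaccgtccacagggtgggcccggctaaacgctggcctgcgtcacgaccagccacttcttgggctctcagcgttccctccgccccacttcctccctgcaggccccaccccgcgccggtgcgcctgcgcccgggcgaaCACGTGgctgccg
Nop2: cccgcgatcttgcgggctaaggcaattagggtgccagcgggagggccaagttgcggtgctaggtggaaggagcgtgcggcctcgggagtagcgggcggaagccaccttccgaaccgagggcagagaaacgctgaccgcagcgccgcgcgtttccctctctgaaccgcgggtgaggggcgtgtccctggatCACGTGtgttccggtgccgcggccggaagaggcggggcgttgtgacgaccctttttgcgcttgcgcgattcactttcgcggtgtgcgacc
Pes1: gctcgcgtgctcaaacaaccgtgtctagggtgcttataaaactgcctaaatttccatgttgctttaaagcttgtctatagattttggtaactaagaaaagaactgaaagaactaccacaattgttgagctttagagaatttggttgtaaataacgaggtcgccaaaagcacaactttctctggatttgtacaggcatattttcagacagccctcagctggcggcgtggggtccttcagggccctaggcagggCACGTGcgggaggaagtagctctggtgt

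The 6 genes with CACGTG had a median knockdown difference of -0.29 and the 25 without it one of -0.21. Of those with it, 3 fell and 1 rose, and of those without it 9 fell and 0 rose. Among the other ribosome biogenesis genes the medians lay the other way round, at 0.23 for the 19 with the motif (3 fell, 5 rose) and -0.13 for the 84 without it (27 fell, 13 rose). In PGCs against control the 2 medians were 0.59 and 0.43 on the percentile scale. A match is a string of letters and not a measured binding site, and no MAX or MYC binding was measured here.

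The Pol I group fell in part after knockdown and rose throughout in PGCs on the percentile scale, where spike-in scaling turned the sign for 4 of the 5. After knockdown 3 of its 5 genes fell and none rose (median -0.28), and in PGCs against control 5 of 5 rose (median 0.66). For this and the roles below, 21.9% of all genes tested fell and 18.2% rose after knockdown. In PGCs against control 43.2% of all genes tested rose and 32.4% fell. Polr1c, a subunit shared by Pol I and Pol III, fell by 0.45 (limma adjusted p = 0.0039), and Mybbp1a, a nucleolar MYB-binding protein, fell by 0.41 (limma adjusted p = 0.0047). The large catalytic subunit Polr1a and the ribosomal DNA-binding factor Ubtf differed by -0.21 and -0.059 and did not pass.

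Polr1b, the other large catalytic subunit, had the biggest Pol I difference in PGCs. Its signal was 1.15, 1.22 and 1.13 in controls, 0.73, 0.96 and 0.96 after knockdown and 3.35, 3.22 and 3.19 in PGCs, so that the knockdown arrays lay just under the controls and the PGC arrays far above both. It fell by 0.28 (SE 0.094, limma adjusted p = 0.042) after knockdown, a call lost under 13 alternative settings. In PGCs it was 4.24-fold higher than in control cells (limma adjusted p = 1.9e-07) and 5.16-fold higher than in knockdown cells (limma adjusted p = 1.1e-07). Under spike-in scaling the differences were 1.12, which did not pass, and 1.38, which did.

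The nucleolar scaffold and multifunctional proteins had the lowest median of any role after knockdown, -0.30, with 3 of 5 fallen. In PGCs against control 2 of the 5, Ncl and Ddx21, rose and the rest did not pass, with a median of 0.11; both rises turned sign under spike-in scaling and with the mean of each gene's probes. Nolc1, a nucleolar phosphoprotein that chaperones snoRNPs, had the largest fall of the set. Its signal was 3.85, 3.90 and 3.76 in controls, 2.985, 3.25 and 3.21 after knockdown and 4.01, 3.94 and 3.90 in PGCs. All knockdown arrays lay under all others, and the PGC and control arrays overlapped. The fall was 1.61-fold (-0.69, SE 0.095, limma adjusted p = 0.00072), but a second, dimmer probe of Nolc1 differed by 0.11 (limma adjusted p = 0.41).

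Gnl3 (nucleostemin), a nucleolar GTPase of stem cells, fell by 0.46 after knockdown (limma adjusted p = 0.0038) and differed by -0.030 in PGCs against control. Npm1 (nucleophosmin), a histone and ribosome chaperone, fell by 0.27 (limma adjusted p = 0.037), a call lost under 13 alternative settings, and differed by -0.032 in PGCs. Ncl (nucleolin), an RNA-binding protein of the nucleolus, lay next to the set's median after knockdown, as near to it as Bop1. Its signal was 6.14, 6.22 and 6.29 in controls, 6.05, 5.84 and 6.12 after knockdown and 6.43, 6.46 and 6.48 in PGCs. The 3 groups did not overlap, yet the knockdown difference of -0.21 did not pass (limma adjusted p = 0.10) and the PGC difference of 0.24 passed narrowly (limma adjusted p = 0.042).

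The box C/D core proteins did not pass in either direction after knockdown. Fbl (fibrillarin), the RNA methyltransferase of these particles, differed by -0.12, Nop56 by -0.21 and Nop58 by -0.022, with 95% intervals of -0.35 to 0.11, -0.49 to 0.070 and -0.22 to 0.17. In PGCs 3 of 3 rose against control, Fbl by 0.60, Nop56 by 0.55 and Nop58 by 0.25, and all 3 turned negative under spike-in scaling.

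The box H/ACA proteins split in PGCs. Nhp2 and Gar1, core proteins of the pseudouridylating particle, rose by 0.42 each against control (limma adjusted p = 0.0041 and 0.0027), and differed by -0.54 each under spike-in scaling. Dkc1 (dyskerin), the pseudouridine synthase itself and a partner of telomerase RNA, fell instead. Its signal was 0.64, 1.04 and 0.66 in controls, 0.40, 0.73 and 0.45 after knockdown and -0.088, -0.19 and -0.17 in PGCs. Control and knockdown arrays overlapped and the PGC arrays lay below all of them. Dkc1 was 1.91-fold lower in PGCs than in control cells (-0.93, SE 0.13, limma adjusted p = 0.00022) and 1.60-fold lower than in knockdown cells (limma adjusted p = 0.0015). Under spike-in scaling the differences were -1.90 and -1.66. That scaling shifts every gene of these comparisons down, so a negative difference could not turn sign. After knockdown only Nhp2 of the 3 fell, by 0.45 (limma adjusted p = 0.0077), while Dkc1 and Gar1 differed by -0.25 and -0.19 and did not pass.

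Small subunit factors had no common direction after Max knockdown, with 1 of 6 fallen, 1 risen and a median of 0.030. These shares, 16.7% each, lie near the 21.9% and 18.2% of all genes tested. Wdr43, a protein of the small subunit processome, had signals of 3.25, 3.18 and 3.15 in controls, 2.81, 2.69 and 2.68 after knockdown and 3.67, 3.57 and 3.595 in PGCs. Its 3 groups were fully apart, and it fell by 0.47 (SE 0.079, limma adjusted p = 0.0020). Rrp12, a factor of subunit maturation and export, ran the other way, with -0.11, -0.082 and 0.003 in controls, 0.39, 0.33 and 0.53 after knockdown and 1.43, 1.32 and 1.5 in PGCs. It rose 1.39-fold after knockdown (0.48, SE 0.089, limma adjusted p = 0.0033) and was 2.79-fold higher in PGCs than in control cells (limma adjusted p = 9.4e-07), a difference of 0.52 that did not pass under spike-in scaling.

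All 6 small subunit factors rose in PGCs against control (median 0.63), beside 43.2% of all genes tested. Under spike-in scaling 4 of the 6 turned negative and none passed. Heatr1, a processome component needed for Pol I transcription, stood at 4.54, 4.56 and 4.47 in controls, 4.85, 4.68 and 4.82 after knockdown and 5.60, 5.375 and 5.58 in PGCs. The knockdown arrays lay above the controls, but the difference of 0.26 did not pass (limma adjusted p = 0.055), and the one of 0.29 in the processome protein Utp20 did not either (limma adjusted p = 0.076). Both passed with slide as a block and with an intensity trend in the fit, each of which raised the set's 2 rises to 4. Heatr1 was 0.99 higher in PGCs than in controls and 0.73 higher than in knockdown cells, and under spike-in scaling these were 0.030 and -0.25. Rrp9, a protein of the U3 snoRNP, lay next to the set's median in PGCs, as near to it as Ddx18. Its signal was 2.41, 2.42 and 2.29 in controls, 1.97, 2.25 and 2.18 after knockdown and 2.84, 2.83 and 2.735 in PGCs, without overlap, and the PGC difference was 0.43 (limma adjusted p = 0.0031; -0.535 under spike-in scaling).

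Large subunit factors were the largest group, and 5 of 14 fell and 1 rose after knockdown (median -0.22), beside 21.9% and 18.2% of all genes tested. Ppan, a factor of early large subunit assembly, had signals of 4.09, 3.90 and 3.85 in controls, 3.29, 3.40 and 3.48 after knockdown and 5.08, 5.14 and 5.13 in PGCs. It was 1.47-fold lower after knockdown (-0.56, SE 0.093, limma adjusted p = 0.0019) and 3.31-fold higher in PGCs than in knockdown cells (limma adjusted p = 5.4e-07). Under spike-in scaling that last difference was 0.74 and did not pass. Wdr74, a partner of an assembly ATPase, stood at 1.99, 2.06 and 2.045 in controls, 1.45, 1.56 and 1.67 after knockdown and 2.08, 2.17 and 2.13 in PGCs. It fell by 0.47 after knockdown (SE 0.083, limma adjusted p = 0.0024), and its 0.094 difference between PGCs and controls did not pass although the arrays did not overlap.

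Nop2, an rRNA cytosine methyltransferase, was lower in both other groups than in control cells. It stood at 4.80, 4.695 and 4.72 in controls, 4.30, 4.455 and 4.54 after knockdown and 4.38, 4.39 and 4.25 in PGCs, where the last 2 groups overlap. It fell by 0.31 after knockdown (limma adjusted p = 0.027), a call lost under 12 alternative settings, and by 0.40 in PGCs (limma adjusted p = 0.0036), or by 1.36 under spike-in scaling. Rrp1b, a nucleolar protein that also binds chromatin, fell by 0.39 and the RNA helicase Ddx18 by 0.28 after knockdown (limma adjusted p = 0.025 and 0.037). Bop1, Wdr12, Nip7, Rrs1, Nop16, Gtpbp4, Nle1 and Ftsj3 did not pass after knockdown, with differences from -0.27 for Nle1 to 0.097 for Rrs1.

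In PGCs against control, 9 of 14 large subunit factors rose and Nop2 fell (median 0.62), beside 43.2% and 32.4% of all genes tested. Under spike-in scaling 4 of the 9 turned negative. Gtpbp4, a GTPase of large subunit assembly, stood at -0.053, 0.058 and -0.15 in controls, 0.023, -0.002 and -0.037 after knockdown and 1.38, 1.29 and 1.38 in PGCs. Its control and knockdown arrays overlapped, and it was 2.64-fold higher in PGCs than in controls (limma adjusted p = 8.7e-07), a difference of 0.44 that did not pass under spike-in scaling. Wdr12 stood at 0.031, -0.045 and -0.075 in controls, -0.16, -0.28 and -0.032 after knockdown and 1.10, 1.05 and 1.08 in PGCs. It was 2.15-fold higher in PGCs than in controls and 2.35-fold higher than in knockdown cells (limma adjusted p = 5.0e-06 and 2.7e-06), with differences of 0.14 and 0.25 under spike-in scaling, neither of which passed.

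Wdr12 works with Pes1 and Bop1 in the PeBoW complex, which acts on the large subunit precursor, and its 3 members did not move alike on these probes. Pes1 stood at 1.53, 1.09 and 0.92 in controls, 2.61, 2.08 and 2.08 after knockdown and 4.24, 4.35 and 4.475 in PGCs. Its 3 groups were fully apart and ascended in that order. Pes1 rose 2.11-fold after knockdown (1.07, SE 0.19, limma adjusted p = 0.0027) and was 9.03-fold higher in PGCs than in controls (limma adjusted p = 1.0e-06), and it was the one gene of the set whose rise in PGCs still passed under spike-in scaling, at 2.21. Bop1 differed by -0.23 and 0.37 and Wdr12 by -0.13 and 1.10 in the same 2 comparisons.

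Both Pes1 rises rest on 1 of its 2 probes. The second probe differed by -0.085 after knockdown (limma adjusted p = 0.53) and by 0.038 in PGCs against control (limma adjusted p = 0.73). The set had 48 probes in all, with 26 genes on 1 probe and 10 on several, and the brightest probe was used for each gene. After knockdown, 3 genes had another probe that differed from the brightest by over 1.5-fold, namely Pes1, Nolc1 and Ncl, whose other probe rose by 0.68 (limma adjusted p = 0.013).

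In PGCs against control, 5 genes had such a probe, and for Ubtf, Ncl and Ddx21 it fell where the brightest probe rose. The other probe differed by -1.49 for Ubtf, -1.57 for Ncl, -0.56 for Ddx21 and -2.82 for Nip7, an assembly factor whose brightest probe differed by 0.068. In PGCs against knockdown, 6 genes had such a probe. It differed by -1.64 for Ubtf, -2.26 for Ncl, -0.59 for Ddx21 and -3.15 for Nip7. For Nolc1 and Pes1 it differed by 0.0025 and 0.12 and did not pass, where the brightest probe rose. The values of these 6 genes therefore depend on which probe is read. Ppan, Rrp12, Polr1b, Dkc1 and Gtpbp4 each had 1 probe, so no other probe bears on theirs.

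**Figure D4:**
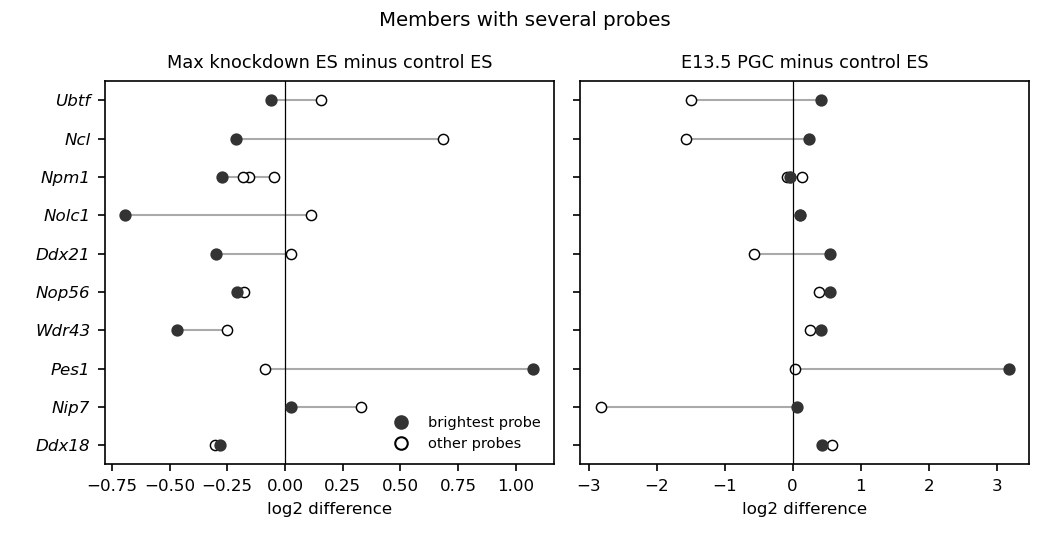
Log2 difference from control ES cells of every probe of the 10 genes that had several, with the brightest probe filled and the others open; the horizontal axes differ. Pes1, Nolc1 and Ncl differ between probes by over 1.5-fold after knockdown, and Ubtf, Ncl, Ddx21, Pes1 and Nip7 do so in PGCs, where all values are on the percentile scale and directions turn for several under spike-in scaling.

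Ribosome biogenesis genes outside the set moved in both directions after knockdown. Of 126 such genes, 122 were tested, and 37 fell (30.3%, beside 21.9% of all genes tested) and 19 rose (15.6%, beside 18.2%). Their median was -0.081, beside -0.065. By role, 3 of 11 Pol I factors fell and 2 rose, 3 of 9 snoRNP factors fell and 3 rose, 12 of 45 small subunit factors fell and 7 rose, 15 of 42 large subunit factors fell and 6 rose, and 4 of 15 exosome and nuclease genes fell and 1 rose. The share of falls is given beside the set's 36.1% as a description and their difference was not tested.

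Among the genes with the smallest p of each role, both directions occurred. Nufip1, a snoRNP assembly factor, rose by 1.37 and Ruvbl2, an ATPase of the complex that assembles snoRNPs, fell by 0.75 (limma adjusted p = 0.00018 and 0.00089). The Pol I factors Cd3eap and Polr1e, which are partners in the same subcomplex, differed by 0.61 and -0.43 and both passed. Imp3 of the U3 snoRNP fell by 0.66 and Ltv1, a small subunit export factor, rose by 0.60. The large subunit factors Nop53 and Rpf2, both tied to 5S rRNA incorporation, fell by 0.66 and 0.56. In the RNA exosome, the nuclease Dis3 fell by 0.61 and the ring subunit Exosc8 by 0.45.

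In PGCs against control, 72 of the 122 rose (59%, beside 43.2% of all genes tested) and 19 fell (15.6%, beside 32.4%). Their median of 0.50, beside 0.18, became -0.46, with 0 rises and 18 falls, under spike-in scaling. Over all 20443 genes tested 1162 rose and 7595 fell in that setting. On the percentile scale Mphosph10, a U3 snoRNP protein, was 2.01 higher, the helicases Ddx51 and Ddx10 1.79 and 1.74 higher, and Tex10, of a complex that acts late in large subunit processing, 1.71 higher. Taf1c of the Pol I initiation factor was 1.36 higher and Znhit6, a snoRNP assembly factor, 1.30 higher. The exosome subunit Exosc1 and the 5′ exonuclease Xrn2 were 1.20 and 1.16 higher. Polr1d, a subunit shared by Pol I and Pol III, fell by 1.64 and Naf1, an H/ACA assembly factor, by 1.43.

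Proliferation genes and markers of other cells moved in the same arrays, and all values of this kind are on the percentile scale. Over all genes tested 21.9% fell and 18.2% rose after knockdown, and in PGCs against control 32.4% fell and 43.2% rose. Of 15 proliferation genes tested, 2 fell after knockdown, and in PGCs against control 12 fell and 1 rose. Of 10 fibroblast markers, 6 fell after knockdown, and in PGCs against control 8 fell and 2 were higher. Their summed signal, in multiples of the array's 75th percentile, was 50.6 to 52.3 in controls, 39.7 to 48.6 in knockdown and 49.8 to 51.8 in PGCs, and most of it came from Fn1, whose mean log2 signals were 5.20, 5.20 and 5.61. The sum of 10 gonadal somatic cell markers was 2.73 to 3.5 in controls, 2.12 to 2.89 in knockdown and 3.59 to 7.02 in PGCs. Of the 9 tested, 6 rose in PGCs against control, Wt1 fell by 1.00 (limma adjusted p = 0.01), and Sox9 and Gata4 did not pass. Blood and endothelial markers (7 with a probe) summed to 1.72 to 2.39, 1.96 to 2.97 and 2.32 to 3.2. Among the 5 tested, Tie1 (2.84) and Tek (1.13), receptors of endothelial cells, rose after knockdown (limma adjusted p = 0.00059 and 0.0020), and neither was well above background on any PGC array. The other 3, Hba-a1, Hbb-bh1 and Kdr, did not pass after knockdown. The globin gene Hba-a1 was 3.89 higher in PGCs than in controls (limma adjusted p = 9.8e-06). In the same comparison Tie1 and Tek fell, and Hbb-bh1 (0.57) and Kdr (-0.051) did not pass (limma adjusted p = 0.10 and 0.82). The part of these markers in the values of the ribosome biogenesis genes was not tested.

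Markers of the labelled cell types were also read, and the 9 ES cell markers did not move together. After knockdown 3 rose and 1 fell, beside 18.2% and 21.9% of all genes tested. In PGCs against control 3 rose and 5 fell, beside 43.2% and 32.4%. Nanog was dim in controls (mean -4.17), fell by 0.97 after knockdown and was 1.91 higher in PGCs. The sum below weighs the brightest most, which in controls were Utf1, Tdgf1 and Esrrb. The sum of 9 ES cell markers was 158 to 187 in controls, 174 to 185 after knockdown and 117 to 125 in PGCs, and Pou5f1, a pluripotency factor that germ cells keep, differed by 0.040 after knockdown and by -0.11 in PGCs against control, passing in neither. The sum of 10 germ cell markers was 10.1 to 11, 37.2 to 41.5 and 129 to 148. Ddx4 rose by 2.64 after knockdown (limma adjusted p = 6.7e-06) and was 3.71 higher in PGCs than in control cells. Its promoter drives the Venus for which the knockdown cells, but not the controls, were sorted. Higher Ddx4 in the knockdown cells was thus selected for by the gate and does not test their label.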

How the data were processed

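Each of the 9 arrays was an Agilent 1-colour array labelled with Cy3 from 100 ng of RNA. The scanner files hold spot intensity, which per the file headers the authors' software (Feature Extraction 10.7.3.1) had background-subtracted and detrended. The deposited value table holds log2 values; it matched the scanner signals centred on each probe's median (r = 0.99994 to 0.99999 per array), with column medians of -0.02, -0.12, -0.07, 0, 0, 0, 0, 0.34 and 0.39, and its scale and centring are not stated. It served as an alternative.

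Spots of a probe were averaged, and control spots and 65 probes with outlier flags were left out. The log2 of the processed signal minus the array's 75th percentile was used. Of 39364 probes, 26012 were named through RefSeq accessions, with the brightest probe kept for a gene. Genes were tested if every array of some group had them well above background, and were fitted with limma 3.58.1 in R 4.3.3 (lmFit, eBayes, 3 groups in 1 fit). The fit was tested on simulated data. The array header names mm9 and the promoter windows are of GRCm38.p6, so no coordinates were carried between them.

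Given per array were the 4 genes of the set with the smallest adjusted p in each direction of a comparison and 1 of the 2 genes nearest the set's median. From each list of other ribosome biogenesis genes, the 2 with the smallest adjusted p were named. The set, the lists and the rules were chosen with earlier results of these data known. Alternatives were quantile normalization, spike-in scaling (6 of 10 spike-in probes used), normexp, other filters and probe rules, an intensity trend, fits without the third group, blocks for replicate number or slide, the deposited log2 table, and omission of each array in turn. Chosen after seeing the data were normexp without disturbed spots (11 spots of knockdown 1 and 3 of knockdown 2 had background above signal), spike-in scaling with slide as a block, and differences within slides.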

Additional observations from a re-analysis of the deposited data

How the results depend on the processing

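Spike-in scaling changed most. It left 0 genes of the set and 0 of the other ribosome biogenesis genes risen or fallen after knockdown, beside 731 risen and 291 fallen of all 20443. With slide as a block as well, 5 of the set fell and 2 rose, and 19 of the 122 others fell and 14 rose. Over all genes 3529 fell and 3650 rose there. The falls were thus a smaller share of the set and of the others than of all genes. In PGCs against control 1 gene of the set rose and 2 fell, and 0 of the others rose and 18 fell. Over all 20443 genes 1162 rose and 7595 fell there. Against knockdown 1 of the set rose and 1 fell, and 0 of the others rose and 19 fell, beside 1000 and 7424 of all genes. The set's median became -0.53 against control and -0.256 against knockdown. Of the genes that had risen in PGCs against control, those reversed were Ncl (-0.721), Nop58 (-0.716), Bop1 (-0.597), Mybbp1a (-0.57), Wdr43 (-0.545), Gar1 (-0.541), Ubtf (-0.54), Nhp2 (-0.539), Rrp9 (-0.535), Ddx18 (-0.525), Noc4l (-0.463), Ddx21 (-0.418), Nop56 (-0.416), Fbl (-0.362), Polr1a (-0.307), Polr1c (-0.305), Utp20 (-0.207), Nle1 (-0.161), Max (-0.111) and Nop16 (-0.03). Genes that had not passed turned negative too, among them Wdr74 (-0.869), Nolc1 (-0.854), Mycn (-0.756) and Mga (-0.701). Of the genes followed singly against knockdown, Heatr1 (-0.249) reversed, and 23 of the set's 33 rises turned there. The 75th percentile lay 1.44 to 1.63 below the spike-ins on slide 1 and 2.50 to 2.66 below them on slide 2, whichever the ES cell group, and 2.25, 3.22 and 3.05 below them on PGC arrays 1, 2 and 3. No source used here says whether spike-ins were added evenly.

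With the mean of each gene's probes, Nip7 (-1.376), Ncl (-0.665), Ubtf (-0.532) and Ddx21 (-0.008) reversed in PGCs against control, where 5 genes fell, and 4 fell against knockdown. After knockdown 8 genes of the set fell with quantile normalization, 8 without a filter (24 of the others), and 4 rose with an intensity trend or with slide as a block (Heatr1 and Utp20 besides). Over all genes 4318 of 20443 fell with quantile normalization, so the set's share of falls was near that of all genes there. Without a filter 3365 of 32450 fell. With an intensity trend 3867 of 20443 rose, and with slide as a block 4234. Against control the PGC median was 0.307 with quantile normalization, 0.319 with normexp, where 4 fell, and 0.322 with normexp without disturbed spots. Against knockdown it was 0.49, 0.484 and 0.487, with 2 fallen each. Leaving out 1 array gave 8 to 12 falls of the set after knockdown, and a PGC median against control of 0.442 to 0.479. Over all genes it gave 3436 to 3969 falls after knockdown. Allowing CACGCG raised the E-box genes from 6 to 15. The causes were not tested. Of the 15 knockdown calls, 7 held in every alternative run but spike-in scaling alone, and 24 of 29 did in PGCs against control.

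With the replicate number as a block (replicate block), 2 of the set rose and 9 fell after knockdown, 25 rose and 2 fell in PGCs against control, and 12 of the other genes rose after knockdown. Over all 20443 genes, 2856 rose and 3242 fell after knockdown, and 8767 rose and 6560 fell in PGCs against control. Controls and knockdowns share only numbers 1 and 2, and the deviations of these pairs correlated at 0.372 and 0.393. Control 1 with knockdown 2 and control 2 with knockdown 1, also on slide 1, gave -0.027 and -0.066. Control 3 with knockdown 4, alone on slide 2, gave 0.508, and PGC arrays lay between -0.031 and 0.025 with their number.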
